A study of Rattus norvegicus with 14 samples.

Results

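C-low-threshold mechanoreceptors (C-LTMR) are unmyelinated skin afferents that respond to gentle stroking, and cool-sensing neurons are small afferents that respond to a drop in skin temperature, most of them through the channel Trpm8. The genes described here are 9 grouped under the label of these neurons, chosen by symbol: Th, Slc17a8, Tafa4, Zfp521, P2ry1, Cdh8, Foxp2, Penk and Rarres1. Their identifiers are, in that order, ENSRNOG00000020410, ENSRNOG00000007581, ENSRNOG00000005830, ENSRNOG00000016874, ENSRNOG00000014232, ENSRNOG00000056643, ENSRNOG00000054508, ENSRNOG00000008943 and ENSRNOG00000037853. All 9 were found, once each, among the 30562 genes of the tables. The dorsal root ganglia L2 to L5 were sampled in 7 wild-type male rats in which an extensor digitorum longus muscle had been grafted onto the saphenous nerve, a cutaneous nerve of the leg, on one side. The ganglia of the other, unoperated hindlimb of the same rat were the control. The 6-week groups held 3 rats (A, B, E) and the 8-week groups 4 rats (C, D, G, H), with 1 control and 1 surgical library from each rat. Strain and age are not given in the sources used here, the control side carried no sham operation in the labels, and these ganglia also hold neurons of other leg nerves. The purpose stated for the series was to compare ganglia upstream of the graft with unoperated ones.

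As background, C-LTMR in the mouse are recognised by tyrosine hydroxylase (Th), the rate-limiting enzyme of catecholamine synthesis, by the vesicular glutamate transporter VGLUT3 (Slc17a8) and by Tafa4, a secreted chemokine-like peptide that dampens pain after injury. Their development depends on the transcription factor Runx1, and their mechanical responses on the channel Piezo2. Trpm8 is the cold and menthol receptor of cool-sensing neurons. Zfp521 and Foxp2 encode a zinc-finger and a forkhead transcription factor, P2ry1 an ADP receptor coupled to a G protein, Cdh8 a type II cadherin, Penk the precursor of the enkephalins, and Rarres1 a retinoid-responsive protein related to the carboxypeptidase inhibitor latexin. Penk is also expressed by many neurons of the spinal dorsal horn.

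The sequences before the start sites of 4 members are shown because 3 of them, Slc17a8, Tafa4 and P2ry1, were lower on the surgical side of every rat at 8 weeks, while Th, the fourth, was not. RefSeq (build GRCr8) held such a window for 7 of the 9 members, all but Foxp2 and Penk. Each is the 250 bases before the start site, 5′ to 3′ on the gene's own strand, with matches to TGTGGT or TGCGGT (the core bound by RUNX factors, searched on both strands) and to TGACGTCA (the cyclic AMP response element, the same on both strands) in capitals. The windows lie at chr1:207508219-207508468 (minus strand, Th), chr4:131227941-131228190 (minus strand, Tafa4), chr7:25935411-25935660 (minus strand, Slc17a8) and chr2:147391411-147391660 (plus strand, P2ry1).
Th: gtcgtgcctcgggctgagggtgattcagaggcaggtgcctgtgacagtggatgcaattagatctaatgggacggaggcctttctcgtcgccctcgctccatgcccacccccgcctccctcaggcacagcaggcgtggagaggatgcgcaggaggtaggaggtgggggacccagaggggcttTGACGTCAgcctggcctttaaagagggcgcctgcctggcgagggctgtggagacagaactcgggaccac
Tafa4: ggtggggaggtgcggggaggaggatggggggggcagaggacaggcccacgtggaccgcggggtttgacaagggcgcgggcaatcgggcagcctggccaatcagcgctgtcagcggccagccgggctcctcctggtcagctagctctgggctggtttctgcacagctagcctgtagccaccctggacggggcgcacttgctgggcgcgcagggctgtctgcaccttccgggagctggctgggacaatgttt
Slc17a8: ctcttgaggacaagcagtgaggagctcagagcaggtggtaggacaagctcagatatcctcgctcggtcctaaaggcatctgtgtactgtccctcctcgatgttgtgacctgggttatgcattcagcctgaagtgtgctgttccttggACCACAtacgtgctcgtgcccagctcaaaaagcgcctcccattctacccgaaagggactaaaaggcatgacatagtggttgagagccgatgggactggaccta
P2ry1: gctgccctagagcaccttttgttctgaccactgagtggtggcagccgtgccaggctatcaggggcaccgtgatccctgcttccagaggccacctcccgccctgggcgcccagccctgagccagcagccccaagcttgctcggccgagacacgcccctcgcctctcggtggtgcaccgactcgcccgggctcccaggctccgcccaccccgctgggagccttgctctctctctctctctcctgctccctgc
The Th window holds TGACGTCA, whose first base lies 69 bases before the start and which 1.59% of 33469 such windows hold. The Slc17a8 window holds 1 RUNX core, read as ACCACA on the printed strand, which in either orientation is in 14.5% of windows. The TGCGGT form was in 5.02% of windows. No other match to these letters lay in the windows of the 7 matched members, which says nothing about the factors.

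The libraries differed in how much neuronal and other tissue they held, and these values touch every result below. Total estimated counts ran from 18489118 to 28237574 per library. The mean log2 CPM (depth-scaled counts, with TMM) of 16 pan-neuronal genes ran from 5.16 (A, surgical) to 8.53 (G, control). Genes of spinal cord neurons and central glia stood at a mean log2 CPM of 4.93 in one library (B, surgical) and between -1.72 and 0.36 in the other 13. Skeletal muscle genes reached 10.88 (C, surgical), 8.64 (H, control) and 6.36 (E, surgical), and at most 3.51 in the other 11. In such bulk samples, fewer cells of a type and less RNA per cell cannot be told apart.

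The label was checked against the levels, in TPM (length-scaled transcript abundance), a scale that corrects for transcript length. Trpm8 was detected in every library, from 0.526 to 15.99 TPM, and Piezo2 from 1.54 to 32.3 TPM. Th, the first marker of the C-LTMR in the mouse, was close to the limit of detection, with 3 to 26 counts per library and at most 0.854 TPM, and Slc17a8 did not exceed 1.498 TPM. Across the 14 libraries, log2 CPM followed the pan-neuronal level in Cdh8 (Pearson r = 0.90), Tafa4 (0.88), Rarres1 (0.86), Zfp521 (0.85) and Slc17a8 (0.78), as it did in Trpm8 (0.97) and Piezo2 (0.98). It did so less in P2ry1 (0.34), Penk (0.29) and Th (0.15), and Foxp2 ran the other way (-0.55). The median r over the 17035 genes tested was 0.07. These r describe libraries that share rats and differ in depth, and carry no test. Thus 5 members rose and fell with neuronal content, P2ry1, Penk and Th did so less, and Foxp2 ran against it. Genes of any neurons can follow this level, so these r cannot show whether the label holds for C-LTMR or cool-sensing neurons.

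**Figure D1:**
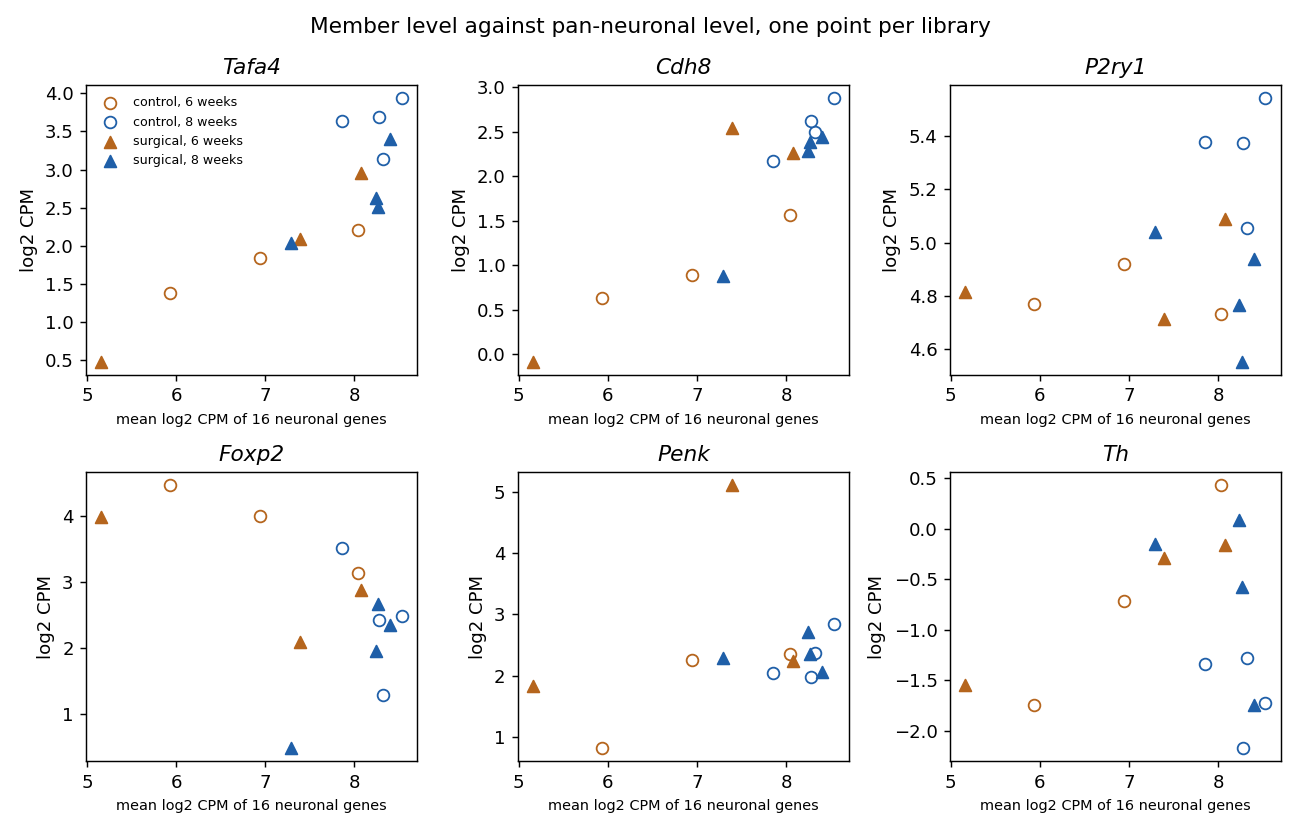
Each panel plots the log2 CPM of 1 member (y axis) against the mean log2 CPM of 16 pan-neuronal genes (x axis), with 1 point per library (circles control, triangles surgical, brown 6 weeks, blue 8 weeks). Tafa4 and Cdh8 climb with the neuronal level, Foxp2 descends, and the surgical library of rat B stands alone at the top of the Penk panel.

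The members spanned over 2 orders of magnitude of TPM. Rarres1 was the most abundant (median 81.2 TPM over 14 libraries), followed by P2ry1 (7.80) and Zfp521 (5.53), and each of these exceeded the next in 14 of 14 libraries. Zfp521 exceeded Penk (median 4.996) in 9 of 14 libraries and Penk exceeded Tafa4 (3.57) in 10 of 14, so those neighbours were not separated. Tafa4 exceeded Cdh8 (2.07) in 14 of 14. Cdh8 exceeded Foxp2 (1.09) in 9 of 14, Foxp2 exceeded Slc17a8 (0.493) in 11 of 14, and Slc17a8 exceeded Th (0.306) in 7 of 14.

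**Figure D2:**
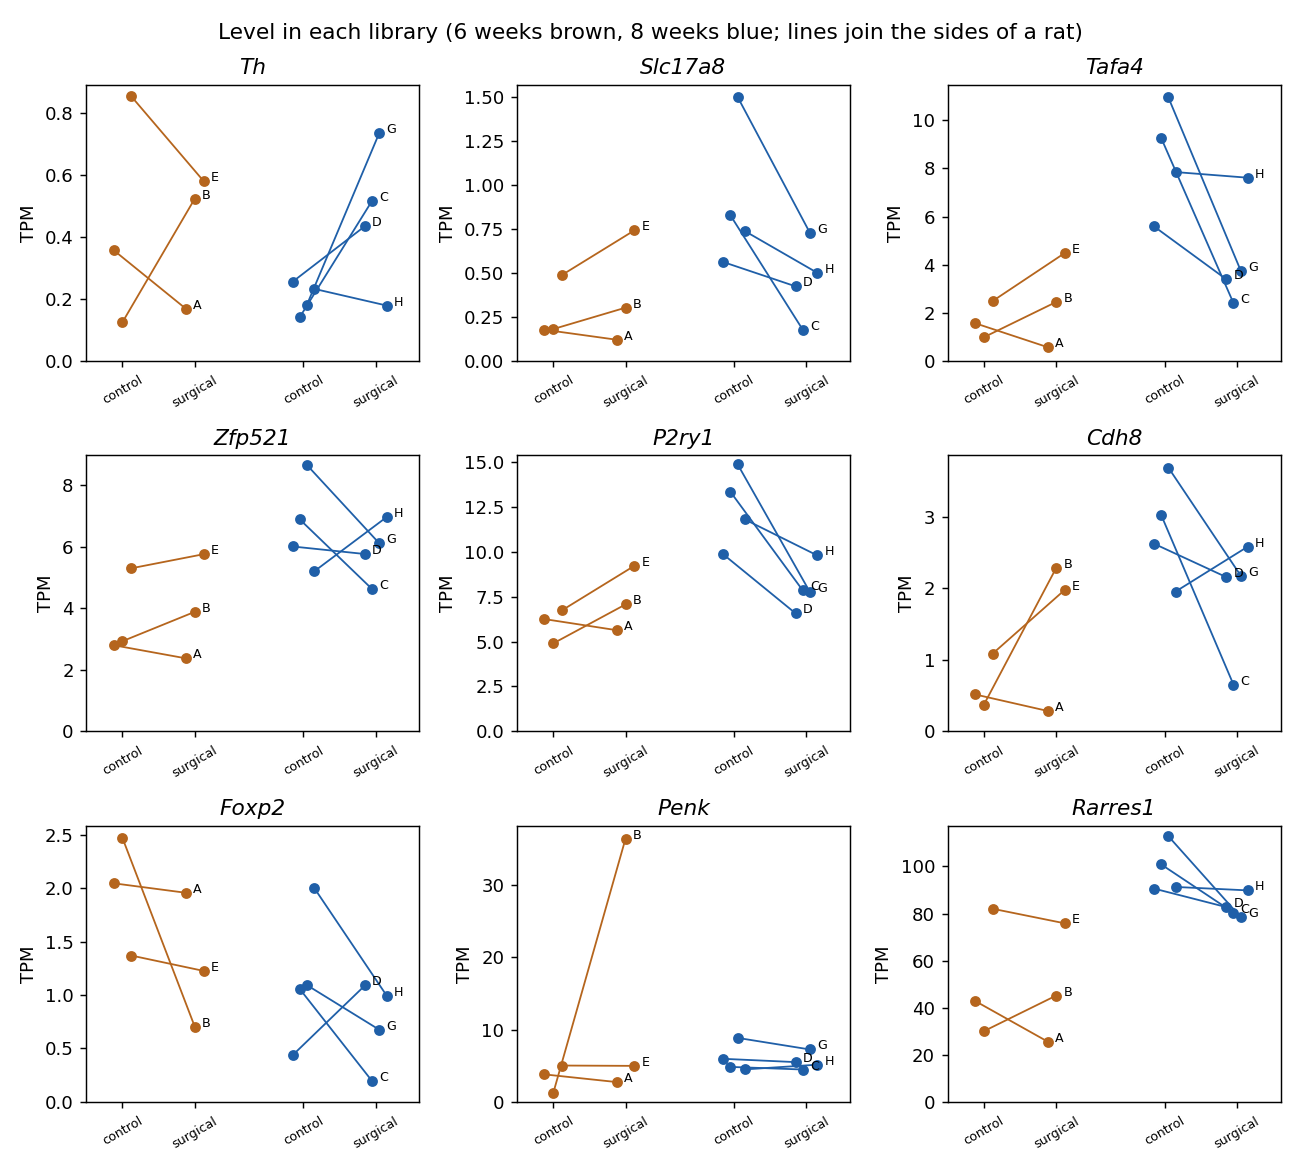
Each panel plots the TPM of 1 member (y axis, from 0) in the control and surgical library of each rat, joined by a line and marked with the letter of the rat (brown 6 weeks, blue 8 weeks). At 8 weeks the lines of Slc17a8, Tafa4 and P2ry1 go down in 4 of 4 rats, and the Penk panel is set by the 36.4 TPM of rat B.

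The comparison of sides asked what differs in ganglia whose cutaneous nerve was given muscle as a target, with each rat as its own control. Over both times none of the 9 members passed edgeR's quasi-likelihood test, each with a Benjamini-Hochberg adjusted p = 1 over all genes. Nor did any of the 17035 genes (0%), of which 412 had an unadjusted p under 0.05 and 6 were called by DESeq2, none of them a member. Differences below are log2 differences fitted within rats, surgical minus control, with their standard error (SE). A total of 7 members lay below 0, beside 49.9% of all genes, and their median was -0.20 against 0.000383 over all genes tested. No member had an unadjusted p under 0.05 over both times, beside 2.42% of all genes, and none was higher or lower in all 7 rats, beside 1.19% of all genes. The fits over both times, at 6 weeks and at 8 weeks share their libraries, so their values are not independent of each other.

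Among the genes of the C-LTMR proper, Tafa4 was followed in every library. At 8 weeks its control and surgical TPM, with the rat in parentheses, were 5.59 and 3.39 (D), 9.27 and 2.40 (C), 10.95 and 3.75 (G), and 7.85 and 7.61 (H). At 6 weeks the control and surgical values were 1.56 and 0.569 TPM (A), 0.980 and 2.45 (B), and 2.48 and 4.48 (E). The surgical side was thus the lower in all 4 rats at 8 weeks, by little in rat H, and in 1 of 3 rats at 6 weeks, and the ranges of the sides overlapped at both times. The 8-week log2 difference was -0.96 (SE 0.41; unadjusted p = 0.0496, adjusted p = 1, edgeR) and the 6-week one 0.07 (SE 0.50; adjusted p = 0.999).

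Slc17a8, which loads vesicles with glutamate, had the same order at 8 weeks. Its control and surgical values were 0.561 and 0.423 TPM (D), 0.826 and 0.176 (C), 1.498 and 0.726 (G), and 0.736 and 0.500 (H). At 6 weeks they were 0.176 and 0.120 TPM (A), 0.180 and 0.302 (B), and 0.487 and 0.740 (E). The surgical side was lower in 4 of 4 rats at 8 weeks and in 1 of 3 at 6 weeks, on counts of only 13 to 145 per library. The 8-week log2 difference was -0.91 (SE 0.32; unadjusted p = 0.0240, adjusted p = 1, edgeR) and the 6-week one 0.07 (SE 0.39; adjusted p = 0.999).

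P2ry1, the ADP receptor gene, was the third member with this order and the most abundant of the 3. At 8 weeks its control and surgical values were 9.87 and 6.57 TPM (D), 13.35 and 7.85 (C), 14.88 and 7.75 (G), and 11.81 and 9.80 (H). The lowest control value lay just above the highest surgical one, so the 2 sets of 4 libraries did not overlap in TPM. The same held for 2 of 9 members, P2ry1 and Rarres1, beside 1.61% of all genes. For Rarres1 it held in TPM only, since its log2 CPM overlapped, from 6.36 to 6.57 (control) and 6.21 to 6.50 (surgical). At 6 weeks the values were 6.25 and 5.63 TPM (A), 4.90 and 7.07 (B), and 6.74 and 9.22 (E), with the surgical value above the control value in 2 of 3 rats. On the TMM-scaled log2 CPM, rat B turned to slightly lower (-0.06), and P2ry1 was higher in 1 of 3 rats. The 8-week log2 difference was -0.51 (SE 0.15; unadjusted p = 0.00906, adjusted p = 1, edgeR) and the 6-week one 0.06 (SE 0.17; adjusted p = 0.999).

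These 3 of 9 members had an unadjusted p under 0.05 on the lower side at 8 weeks, beside 0.575% of all genes, and the same 3 were lower in every rat, beside 4.56% of all genes. None passed after adjustment, as none of the 17035 genes did at 8 weeks (0%), where 180 had an unadjusted p under 0.05 (1.06%) and DESeq2 called 4, none of them a member. The pan-neuronal level differed between the sides by -0.06 in rat D, -0.98 in rat C, -0.29 in rat G and 0.54 in rat H. Relative to that level, Tafa4 stood lower on the surgical side by 0.57, 0.67, 1.02 and 0.77 on the log2 scale in rats D, C, G and H, and Slc17a8 by 0.26, 0.71, 0.57 and 1.24. P2ry1 relative to it was lower in 3 of 4 rats and higher in rat C, by 0.65. Cdh8, Piezo2 and Gfra2 relative to it were also lower in 4 of 4 rats, and the share of all genes was not computed on this scale. With the pan-neuronal level as a covariate the 8-week log2 differences were -0.81 (SE 0.23) for Tafa4, -0.86 (SE 0.29) for Slc17a8 and -0.51 (SE 0.14) for P2ry1, each with adjusted p = 0.988 (edgeR). Without rat B, with its spinal cord transcripts, and rats C and H, with the most muscle transcripts, the 8-week values were -0.997 (SE 0.57) for Tafa4, -0.63 (SE 0.41) for Slc17a8 and -0.65 (SE 0.19) for P2ry1, resting on rats D and G.

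Th went the other way at 8 weeks, on very few counts. Its control and surgical counts were 9 and 13 (D), 3 and 18 (C), 6 and 24 (G), and 7 and 5 (H). At 6 weeks they were 10 and 5 (A), 4 and 16 (B), and 26 and 15 (E). The surgical side was higher in 3 of 4 rats at 8 weeks and 1 of 3 at 6 weeks. The exact 95% Poisson intervals of these counts cover counting error only. At 8 weeks the control and surgical intervals were 0.619 to 8.77 and 10.7 to 28.4 in rat C. In rat G they were 2.20 to 13.1 and 15.4 to 35.7. They overlapped in rat D (4.12 to 17.1 and 6.92 to 22.2) and in rat H (2.81 to 14.4 and 1.62 to 11.7). The log2 difference was 1.28 (SE 0.66; adjusted p = 1, edgeR) at 8 weeks and -0.04 (SE 0.75; adjusted p = 0.999) at 6 weeks. Across the libraries Th did not follow Tafa4 (r = -0.25) or Slc17a8 (r = -0.09), whereas the latter pair followed each other (r = 0.86).

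Sympathetic neurons also make Th, and their markers were examined beside it. Dbh, which turns dopamine into noradrenaline, had 0 to 7 counts per library and was at 0 in 2 of 14 libraries. Other genes of the list were above 0 in all 14, with 4 to 67 counts of the noradrenaline transporter gene Slc6a2, 12 to 64 of Gata3, 118 to 298 of Gata2 and 42 to 1764 of Chrna3. Their part in the Th values was not tested. Of the 8 genes of that list 4 passed the filter over both times, and none was called. The mean log2 CPM over the list ran from -0.88 to 0.40. Of 10 tested genes of catecholamine synthesis and transport none was called either. Ddc, the next enzyme after Th, had a log2 difference of 0.76 (SE 0.33; unadjusted p = 0.0445, adjusted p = 1, edgeR) over both times.

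Cdh8, the cadherin, split by time and by library. Its control and surgical values at 8 weeks were 2.62 and 2.16 TPM (D), 3.03 and 0.653 (C), 3.69 and 2.18 (G), and 1.95 and 2.58 (H). At 6 weeks they were 0.515 and 0.285 TPM (A), 0.371 and 2.28 (B), and 1.08 and 1.98 (E). The surgical side was higher in 2 of 3 rats at 6 weeks and in 1 of 4 at 8 weeks. Relative to the pan-neuronal level it was higher in 3 of 3 rats at 6 weeks and in 0 of 4 at 8 weeks. The log2 difference was 0.59 (SE 0.62; adjusted p = 0.999, edgeR) at 6 weeks and -0.53 (SE 0.51; adjusted p = 1) at 8 weeks. Without rat B the 6-week value was -0.10, and the value over both times turned from -0.085 to 0.070 without rat A, 0.19 without rat C and 0.022 without rat G.

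Penk, the enkephalin precursor gene, stood far above its other values in 1 library. The surgical library of rat B held 757 counts, or 36.4 TPM, against 32 counts, or 1.18 TPM, in its control. In the other 6 rats the control and surgical values were 3.79 and 2.73 TPM (A), 5.02 and 4.97 (E), 5.95 and 5.49 (D), 4.83 and 4.47 (C), 8.84 and 7.24 (G), and 4.48 and 5.14 (H). The same surgical library of rat B had the spinal cord level given above, with 1085 counts of Slc32a1 and 1183 of Mog against at most 31 and 29 elsewhere. Other genes of the spinal cord list were less distinct. Hapln2 had 730 counts there and up to 217 elsewhere, and Lbx1 reached its highest count, 151, in another library. The part of that tissue in the Penk value was not tested. The log2 difference was 1.02 (SE 0.91; adjusted p = 0.999, edgeR) at 6 weeks and -0.26 there without rat B, and 0.05 (SE 0.66; adjusted p = 1) at 8 weeks. Among 7 genes of enkephalin processing and opioid receptors none was called, and 4 lay above 0 over both times.

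Foxp2, the forkhead factor gene, lay lower on the surgical side in 6 of 7 rats. Control and surgical values were 2.05 and 1.96 TPM (A), 2.47 and 0.702 (B), and 1.37 and 1.23 (E). At 8 weeks they were 0.436 and 1.09 TPM (D), 1.06 and 0.194 (C), 1.09 and 0.674 (G), and 2.00 and 0.996 (H). Rat D thus went against the others, and in rats A and E the sides nearly met. At 6 weeks Foxp2 was lower in 3 of 3 rats, as were 12.5% of all genes. The log2 difference was -0.71 (SE 0.44; adjusted p = 1, edgeR) over both times, -0.86 (SE 0.71; adjusted p = 0.999) at 6 weeks and -0.60 (SE 0.63; adjusted p = 1) at 8 weeks. Without rats B, C and H the value over both times was 0.12.

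Zfp521 and Rarres1 differed little between the sides. Zfp521 ranged from 2.37 to 8.66 TPM over the 14 libraries and had log2 differences of -0.08 (SE 0.11) over both times, -0.13 (SE 0.17) at 6 weeks and -0.05 (SE 0.15) at 8 weeks. On the TPM scale its 6-week difference was positive (0.08 by limma with 1 added), so its direction at 6 weeks depended on the scale. Rarres1 ranged from 25.6 to 112.8 TPM and had log2 differences of -0.20 (SE 0.12), -0.31 (SE 0.18) and -0.12 (SE 0.16). In TPM Rarres1 was lower on the surgical side of 4 of 4 rats at 8 weeks, and in log2 CPM of 3 of 4. At 6 weeks no member had an unadjusted p under 0.05, beside 3.21% of all genes. No gene passed after adjustment there (0%; 546 had an unadjusted p under 0.05 by edgeR, and DESeq2 called 44, none of them a member).

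**Figure D3:**
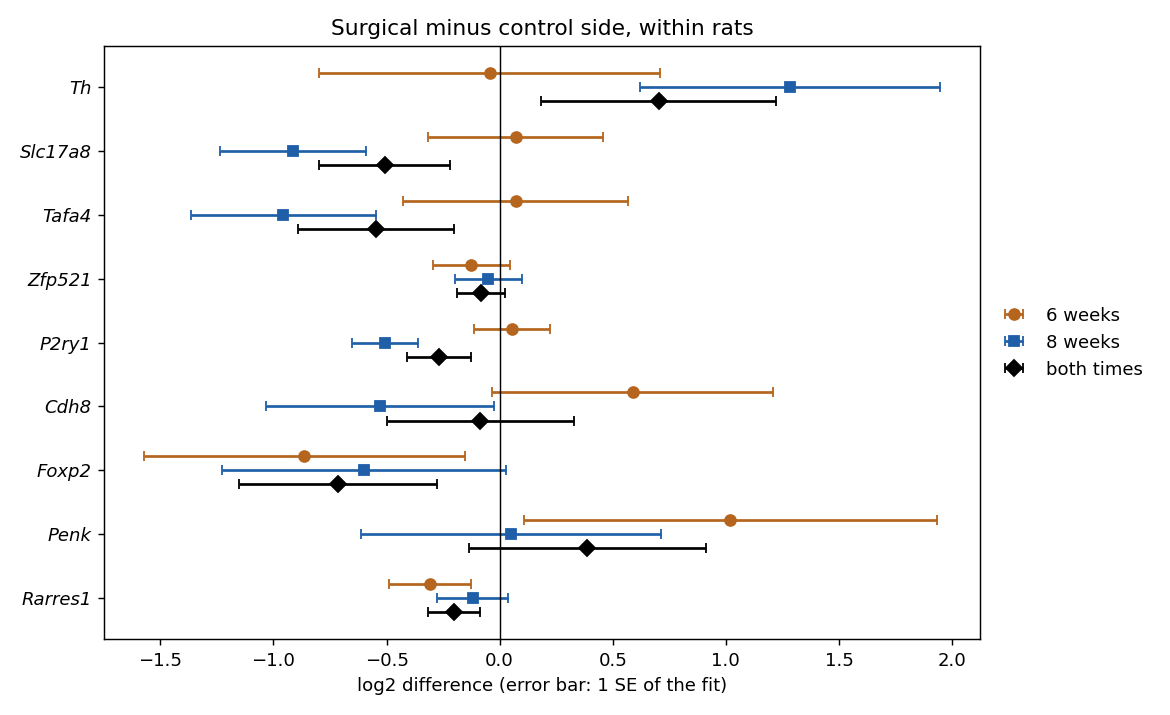
Log2 differences between the surgical and control side (x axis, error bars 1 SE of the edgeR fit) for each member (y axis), at 6 weeks, at 8 weeks and over both times. Slc17a8, Tafa4 and P2ry1 lie below 0 at 8 weeks and near 0 at 6 weeks, and no point passed after adjustment.

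Whether the side difference itself changed between the times was tested as an interaction. P2ry1 had the smallest p among the members, with a log2 difference between the changes, 8 minus 6 weeks, of -0.56 (SE 0.22; unadjusted p = 0.0370, adjusted p = 1, edgeR). It was the 1 member with an unadjusted p under 0.05, beside 0.64% of all genes on the lower side. Slc17a8 stood at -0.99 (SE 0.50), Tafa4 at -1.03 (SE 0.64), Cdh8 at -1.12 (SE 0.80), Penk at -0.97 (SE 1.13) and Th at 1.33 (SE 1.00). Foxp2 (0.26, SE 0.95), Zfp521 (0.07, SE 0.23) and Rarres1 (0.19, SE 0.24) lay nearer 0. All had adjusted p = 1, none of the 17035 genes passed (0%; 252, or 1.48%, had an unadjusted p under 0.05 by edgeR, and DESeq2 called 5), so the 6-week and 8-week changes of the members were not shown to differ.

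The partner genes are given as counts from fixed lists. Of 10 C-LTMR partner genes, among them Piezo2, Runx1 and the neurturin receptor gene Gfra2, none was called. At 8 weeks 10 of 10 lay below 0, beside 8346 of all 17035 genes tested. Their median log2 difference was -0.49, against 0.00570 over all genes. Gfra2 stood at -0.72 (SE 0.27; unadjusted p = 0.0309, adjusted p = 1, edgeR; lower in 4 of 4 rats) and Piezo2 at -0.48 (SE 0.50; adjusted p = 1). At 6 weeks 6 of the 10 lay above 0, with Gfra2 at -0.17 (SE 0.31) and Piezo2 at 0.40 (SE 0.61). Over both times 10 of 10 lay below 0 (median -0.25), beside 49.9% of all genes and 14 of 16 pan-neuronal genes. Gfra2 then stood at -0.48 (SE 0.21) and Piezo2 at -0.13 (SE 0.39). The list of cool and cold sensing genes, 9 of 10 of which were in the tables, had 7 of 9 below 0 at 8 weeks and a median of -0.16. Trpm8 stood at -0.36 (SE 0.57; adjusted p = 1) at 8 weeks, 0.43 (SE 0.75) at 6 weeks and -0.07 (SE 0.44) over both times. Beside them at 8 weeks, the median was -0.42 over 6 peptidergic nociceptor genes, with 6 of 6 below 0. It was -0.72 over 6 non-peptidergic nociceptor genes (6 of 6). For 7 genes of large myelinated neurons it was 0.14 (3 of 7), and for 16 pan-neuronal genes -0.16 (15 of 16). Of 20 paralogs of members none was called, with an 8-week median of 0.06. The members' own 8-week median was -0.51, and nothing particular to them was tested.

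Control ganglia of the 2 times, which come from different rats, were compared to see how the members stood without an operation on that side. Tafa4 averaged 8.41 TPM (SD 2.27, n = 4) in the 8-week and 1.67 TPM (SD 0.758, n = 3) in the 6-week controls, and the groups did not overlap, since the lowest 8-week value was 5.59 and the highest 6-week value 2.48. Its log2 difference was 1.72 (SE 0.28; unadjusted p = 0.000310, adjusted p = 0.0667, edgeR), just outside the threshold. Cdh8 averaged 2.82 TPM (SD 0.726, n = 4) against 0.657 (SD 0.377, n = 3), also without overlap, with a log2 difference of 1.44 (SE 0.30; adjusted p = 0.0815). P2ry1 averaged 12.5 TPM (SD 2.14, n = 4) against 5.96 (SD 0.954, n = 3), again without overlap, with a log2 difference of 0.44 (SE 0.16; adjusted p = 0.135). Slc17a8 averaged 0.905 TPM (SD 0.410, n = 4) against 0.281 (SD 0.178, n = 3) and had a log2 difference of 1.16 (SE 0.43; adjusted p = 0.134), without overlap in TPM but with overlap in log2 CPM.

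Foxp2 differed in the other direction, averaging 1.15 TPM (SD 0.645, n = 4) in the 8-week and 1.96 TPM (SD 0.555, n = 3) in the 6-week controls, with overlapping groups and a log2 difference of -1.46 (SE 0.54; adjusted p = 0.134). Rarres1 averaged 98.9 TPM (SD 10.4, n = 4) against 51.6 (SD 27.1, n = 3), with a log2 difference of 0.40 (SE 0.20; adjusted p = 0.200). Its groups did not overlap in TPM (lowest 8-week value 90.6, highest 6-week value 82.0) but overlapped in log2 CPM. Zfp521 stood at 0.27 (SE 0.19; adjusted p = 0.329) and Penk at 0.32 (SE 0.41; adjusted p = 0.574), and Th did not pass the filter on low counts here. These values depended on the scale, because in log2 TPM the median of all genes tested was itself 0.42 (1 added) to 0.55 (0.1 added) higher in the 8-week controls, against -0.057 in the edgeR fit. By limma on log2 TPM with 1 added the differences were 0.95 for P2ry1, 1.04 for Rarres1, 0.74 for Zfp521 and 0.78 for Penk (adjusted p = 0.0577, 0.0603, 0.0643 and 0.154), over 1.5 times the edgeR values. Of the 8 members tested, 4 had an unadjusted p under 0.05 on the higher side, beside 13.9% of all genes, and 1 on the lower side, beside 17.4%. In log2 CPM 3 members did not overlap with 8 weeks the higher, beside 14.3% of all genes. The share of all genes without overlap in TPM between these control groups was not computed. By edgeR 25 of 16346 genes passed (0.153%), none of them a member. DESeq2 called 3133 of the same 16346, with Tafa4, Cdh8 and Foxp2 among them (adjusted p = 1.04e-06, 0.000336 and 0.0486). Without rat E edgeR called 6388 genes, and the members Tafa4 (adjusted p = 0.0121), Cdh8 (0.0123), Rarres1 (0.0131), Slc17a8 (0.0320) and Foxp2 (0.0418) were among them. The share of all genes tested without rat E is not given here. With so many genes called in either setting, these calls are not read as particular to the members.

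Neuronal content moved with this comparison, at 6.95, 5.93 and 8.04 in the 6-week controls of rats A, B and E and between 7.86 and 8.53 in the 4 controls at 8 weeks. Other cell types moved as well. Of 8 fibroblast and mural cell genes 6 lay below 0 and 5 had an unadjusted p under 0.05 on that side (median -0.73), and their mean log2 CPM ran from 7.13 to 7.78 in the 6-week and from 5.87 to 7.05 in the 8-week controls. All 6 non-peptidergic nociceptor genes lay above 0 with an unadjusted p under 0.05 (median 1.55). Of 10 skeletal muscle genes 10 lay above 0 (median 4.46), with the muscle level at 8.64 in rat H and at most 2.06 in the other 3 controls at 8 weeks. None of these genes passed after adjustment, and their part in the members' values was not tested. With the pan-neuronal level as a covariate the log2 difference was 1.33 (SE 0.34; adjusted p = 0.309, edgeR) for Tafa4, 0.88 (SE 0.31; adjusted p = 0.495) for Cdh8, 0.60 (SE 0.54; adjusted p = 0.845) for Slc17a8 and 0.52 (SE 0.23; adjusted p = 0.585) for P2ry1. For Foxp2 it went from -1.46 to -0.32 (SE 0.57; adjusted p = 0.926) and for Rarres1 to -0.03 (SE 0.13; adjusted p = 0.976). Trpm8 (1.80, SE 0.56; adjusted p = 0.116), Piezo2 (1.67, SE 0.53; adjusted p = 0.118) and Gfra2 (0.92, SE 0.25; adjusted p = 0.0998) were likewise higher in value in the 8-week controls, and 16 of 16 pan-neuronal genes lay above 0 with a median of 0.97. Time after the operation, the rats and the dissection cannot be told apart here, and the control ganglia were not operated on.

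On the surgical side the same comparison of times gave values nearer 0 for Tafa4, Slc17a8, Cdh8 and P2ry1, and the difference from the control side is the interaction tested above. Tafa4 stood at 0.53 (SE 0.58), Slc17a8 at 0.05 (SE 0.59), Cdh8 at 0.12 (SE 0.64), P2ry1 at -0.11 (SE 0.19) and Th at 0.05 (SE 0.61), with adjusted p from 0.756 to 0.983 (edgeR). Rarres1 stood at 0.58 (SE 0.26), Zfp521 at 0.31 (SE 0.21), Foxp2 at -1.25 (SE 0.62) and Penk at -1.55 (SE 0.76), the last being 0.18 without rat B. No member had an unadjusted p under 0.05, beside 6.56% of all genes, and none of 16606 genes passed by edgeR (0%; 1089 had an unadjusted p under 0.05, and DESeq2 called 8). Trpm8 (0.96, SE 0.66), Piezo2 (0.67, SE 0.66) and Gfra2 (0.23, SE 0.40) did not pass either.

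**Figure D4:**
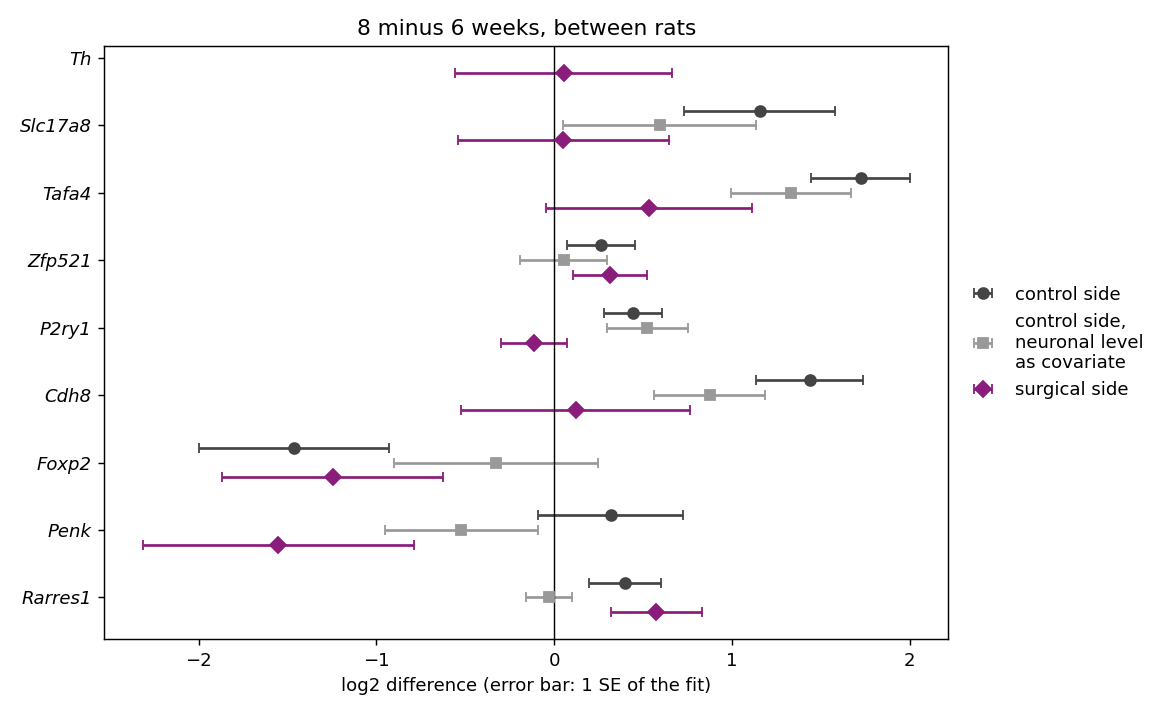
Log2 differences between 8 and 6 weeks (x axis, error bars 1 SE of the edgeR fit) for each member (y axis), on the control side, on the control side with the pan-neuronal level as a covariate, and on the surgical side. Tafa4 and Cdh8 lie highest on the control side, at 1.72 and 1.44, the covariate brings Foxp2 and Rarres1 close to 0, and Th has no control-side value because it did not pass the filter.

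The genes most like each member across the 14 libraries were found by Pearson r of log2 CPM, with no test, over libraries that share rats and neuronal content. Tafa4 was most like Tmem45b (r = 0.98), Drd2 (0.98) and Abca6 (0.97), and Slc17a8 was most like Lcmt1 (0.96), Amigo2 (0.92) and Pde6d (0.92). Cdh8 was closest to Celf4 (0.99), Eml5 (0.98) and Nsg1 (0.98), Rarres1 to Brms1 (0.99), Ech1 (0.98) and Tmem158 (0.98), and Zfp521 to Lgmn (0.95), Tsr3 (0.95) and Cc2d1b (0.95). For Foxp2 they were Rhoj (0.98), Map7d3 (0.98) and Casp12 (0.97), and for Penk Usp29 (0.92), Cabp7 (0.91) and Mast4 (0.91). P2ry1 had weaker matches in Bex4 (0.85), Tmprss11d (0.83) and Serpinb1a (0.82), and Th the weakest, in Pkib (0.70), Rccd1 (0.69) and Chrna1 (0.68).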

How the data were processed

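For each of 14 libraries the authors deposited 2 values per gene, an estimated count and a TPM. FastQC, Trim Galore, Salmon and DESeq2 are named, without their roles, per the submitters' processing notes. Versions and the genome build are not given in the sources used here. The labels name polyA RNA and also ribosomal depletion. The estimated counts were tested as the authors deposited them, and the TPM deposited by the authors give levels. Title letters were used for rats C and D, which are exchanged in the library names with every pair intact, and the surgical library of rat C, titled replicate 1, was used as replicate 2.

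The count test was edgeR 4.0.16 under R 4.3.3 (filterByExpr with a minimum count of 10, TMM, robust quasi-likelihood), with rat as a block in comparisons of sides, at an adjusted p under 0.05. The SE is the log2 difference divided by the square root of F, and log2 CPM used a prior count of 2. The sides are paired because both libraries come from 1 rat; their deviations from the group means correlated by -0.41 to 0.75 across genes. Alternatives used DESeq2 1.42.0, limma 3.58.1 for log2 values of TPM plus 1 or plus 0.1 (genes with a mean of at least 0.5 TPM), other filters, covariates and left-out rats. The tests were checked on simulated data. Members, lists and tests were chosen with earlier results of these data known. All members, Trpm8, Piezo2, Gfra2 and Dbh were named by rule (1 further gene is not reported here), with at most 1 gene per list and direction and the 3 most similar genes per member; Slc32a1, Mog, Slc6a2, Gata2, Gata3 and Chrna3 were picked after their values were seen.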

Additional observations from a re-analysis of the deposited data

Results flagged for a closer look

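In rat B Penk had a surgical minus control difference of 4.29 on the log2 CPM scale, which stood apart from those of the other 6 rats. Cdh8 was at a log2 CPM of 0.88 in the 8-week surgical library of rat C, apart from the other 3 libraries of that group. These are 2 of 27 groups of values examined for a value far from the rest, and chance alone flags about 1 in 20 such groups.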

How the results depend on the processing

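The fitted direction of each named gene was compared across alternatives, and 77 of 1155 values reversed. None of the named genes was called by the edgeR fits of the report, so none could lose a call, and 14 values became calls, all between times on the control side, by DESeq2 or without rat E. The cause of each reversal was not tested. Without the replicate block of paired sides the log2 differences that reversed were Cdh8 0.097 and Trpm8 0.027 over both times. With the pan-neuronal covariate the log2 differences that reversed were Cdh8 0.056, Trpm8 0.14 and Piezo2 0.042 over both times, Penk -0.52 and Rarres1 -0.028 between times on the control side and Th -0.20, Slc17a8 -0.63, Tafa4 -0.18, Cdh8 -0.83, Piezo2 -0.13 and Gfra2 -0.20 between times on the surgical side. Without rats B, C and H the log2 differences that reversed were Foxp2 0.12 and Penk -0.18 over both times, Tafa4 -0.24, Cdh8 -0.070, Penk -0.26, Trpm8 -0.54 and Piezo2 -0.31 at 6 weeks, Foxp2 0.41 and Penk -0.093 at 8 weeks, Penk 0.17, Zfp521 -0.10 and Trpm8 0.34 in the interaction and Penk 0.41 between times on the surgical side. By limma on TPM with 1 added the log2 differences that reversed were Zfp521 0.081 and Gfra2 0.049 at 6 weeks, Penk -0.071 at 8 weeks, Zfp521 -0.24 and Rarres1 -0.16 in the interaction and P2ry1 0.13 between times on the surgical side. By limma with 0.1 added the log2 differences that reversed were Zfp521 0.094 and Gfra2 0.044 at 6 weeks, Penk -0.079 at 8 weeks, Zfp521 -0.27 and Rarres1 -0.16 in the interaction and P2ry1 0.14 between times on the surgical side. With the trend on transcript length removed the log2 differences that reversed were Slc17a8 -0.079 and P2ry1 -0.075 at 6 weeks. Leaving out 1 rat at a time gave over both times Cdh8 from -0.39 to 0.19, Penk from -0.046 to 0.54, Trpm8 from -0.41 to 0.20 and Piezo2 from -0.42 to 0.11. Leaving out 1 rat at a time gave at 6 weeks Th from -0.80 to 0.40, Slc17a8 from -0.20 to 0.32, Tafa4 from -0.35 to 0.72, Cdh8 from -0.096 to 1.31, Penk from -0.26 to 2.07, P2ry1 from -0.11 to 0.14, Trpm8 from -0.57 to 1.45, Piezo2 from -0.32 to 1.19 and Gfra2 from -0.46 to 0.015. Leaving out 1 rat at a time gave at 8 weeks Penk from -0.047 to 0.12 and Zfp521 from -0.16 to 0.049. Leaving out 1 rat at a time gave in the interaction Foxp2 from -0.47 to 0.76, Penk from -2.01 to 0.32, Zfp521 from -0.037 to 0.17 and Trpm8 from -1.80 to 0.22. Leaving out 1 rat at a time gave between times on the surgical side Th from -0.29 to 0.32, Slc17a8 from -0.30 to 0.81, Cdh8 from -0.34 to 0.55, Penk from -2.003 to 0.18 and Gfra2 from -0.040 to 0.87.

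By DESeq2 the genes called numbered 6 over both times, 44 at 6 weeks, 4 at 8 weeks, 5 in the interaction, 3133 for the times among controls and 8 among surgical libraries, where edgeR called 0, 0, 0, 0, 25 and 0. Without the replicate block 2 genes were called at 6 weeks, and the block changed no other call on the sides. On the control side limma called 8 genes with 1 added and 13 with 0.1 added, the covariate left 6, and removing the length trend or rats B, C and H left 0. Leaving out 1 rat at a time gave 0 to 6388 there, the most without rat E. The pan-neuronal level of its control library was 8.04, against 6.95 and 5.93 in those of rats A and B. On the surgical side limma called 3 and 4. Th had at most 26 counts in a library.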
